A study of Rattus norvegicus with 2 samples.

Results

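The subunits of the transcription factor AP-1 were examined in the rat C6 glioma line, in cells treated with small molecules (SMiG) and in undifferentiated cells (C6). The members are 8 genes of the Fos family (Fos, Fosb, Fosl1, Fosl2), the Jun family (Jun, Junb, Jund) and Atf3, taken through the probe sets that the platform annotation gives to 1 of these symbols. Of the 8 genes, 7 had such a probe set, out of 18166 genes with one in the whole table, and Fosl2 was not analysed here. Jun had 2 probe sets and the other 6 genes had 1 each, so 8 probe sets of 36685 carry the results.

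Each group is 1 microarray. The SMiG sample came from C6 glioma cells exposed to compounds that the labels give in 2 ways. Its own source label lists forskolin, which raises cyclic AMP, rapamycin, which blocks mTORC1, and I-BET151, which displaces BET proteins from acetylated histones. The treatment protocol given with each sample lists instead a 35 day exposure to 20 µM CHIR99021, a GSK3 blocker, with 100 µM forskolin. The labels do not settle which of these was used for the array. The C6 sample is labelled as undifferentiated cells of the same line. Both were grown in medium with serum. C6 is a single established tumour line and not primary glia. Since each group is a single array, no difference can be set against a spread between replicates, and no test was made.

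AP-1 is a dimer of basic leucine zipper (bZIP) proteins. Jun proteins pair with each other, with Fos proteins or with members of the ATF family, whereas Fos proteins need a partner such as a Jun protein to bind DNA. Fos-Jun dimers bind the phorbol ester response element (TRE), and dimers with ATF or CREB proteins favour the cyclic AMP response element (CRE). Several of the genes are immediate early genes, switched on within minutes by serum, growth factors, cyclic AMP or stress through factors already present in the cell.

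The 3 members that differed by at least 2-fold between the arrays are shown here with the 250 bases before their RefSeq start, because 2 were higher and 1 was lower in SMiG. The sequences are from RefSeq on the GRCr8 build, written 5′ to 3′ on the strand of the gene. Capitals mark matches to the motifs named after them. Junb lies on the plus strand at chr19:40080876-40081125, Jund on the minus strand at chr16:18769772-18770021 and Fosl1 on the plus strand at chr1:212183635-212183884.
Junb: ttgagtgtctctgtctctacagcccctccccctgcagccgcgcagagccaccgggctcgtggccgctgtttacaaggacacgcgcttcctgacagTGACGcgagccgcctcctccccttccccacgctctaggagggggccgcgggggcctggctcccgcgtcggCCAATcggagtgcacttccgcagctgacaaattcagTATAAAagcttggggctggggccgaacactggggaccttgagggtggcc
Jund: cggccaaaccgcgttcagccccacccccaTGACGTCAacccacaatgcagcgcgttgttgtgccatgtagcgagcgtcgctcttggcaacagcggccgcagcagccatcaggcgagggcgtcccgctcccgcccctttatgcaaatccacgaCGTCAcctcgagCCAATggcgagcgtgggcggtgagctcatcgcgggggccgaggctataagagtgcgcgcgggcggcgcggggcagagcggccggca
Fosl1: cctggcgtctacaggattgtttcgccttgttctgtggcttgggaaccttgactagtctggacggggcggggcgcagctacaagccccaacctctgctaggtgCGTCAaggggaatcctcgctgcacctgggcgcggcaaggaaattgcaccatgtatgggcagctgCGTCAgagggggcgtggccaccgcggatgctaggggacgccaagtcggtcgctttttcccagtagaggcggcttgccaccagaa

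Motifs were searched on both strands as exact letters, namely the TRE (TGACTCA), the full CRE (TGACGTCA), the CRE half-site (TGACG, which also lies inside each full CRE), CCAAT, the TATA box (TATAAA) and the CArG box that binds serum response factor. The Jund window held 1 full CRE, at −221 to −214 from the start, as did 1.59% of the 33469 windows of the same length. It also held a CRE half-site outside that match, at −98 to −94 on the opposite strand, and a CCAAT match at −86 to −82. The Junb window held a half-site at −155 to −151, a CCAAT match at −85 to −81 and a TATA match at −49 to −44. The Fosl1 window held half-sites at −148 to −144 and −84 to −80, both on the opposite strand. Half-sites are common, present in 18.2% of all windows, CCAAT in 34.0% and TATAAA in 12.9%. No TRE or CArG match lay in the 3 windows, against 4.05% and 1.5% of all windows. The shares over all windows were not matched for GC content. It was 66% in the Junb, 68.4% in the Jund and 62% in the Fosl1 window, against a median of 51.2% over all windows. RefSeq windows were at hand for 5 of the 8 members, and of the others the Fosb window held 1 TATA match, at −180 to −175 on the opposite strand, and the Fosl2 window 0 matches. A match describes letters in a window and not a bound site.

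**Figure D1:**
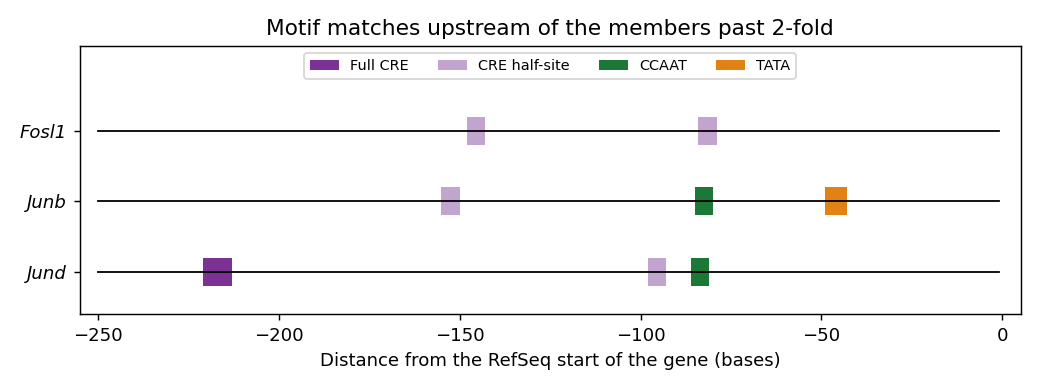
Motif matches in the 250 bases before the RefSeq start of Fosl1, Junb and Jund, drawn to scale with the distance from the start in bases on the x axis. Half-sites inside the full CRE are not drawn again. The full CRE is in the Jund window, the TATA match is in the Junb window, and each window has at least 1 half-site outside a full CRE.

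All 7 members gave a signal above the floor on both arrays. The floor is the 95th percentile of 1344 olfactory and vomeronasal receptor genes, taken as silent, at 4.96 in SMiG and 4.86 in C6 on the log2 scale. At least 2-fold, a log2 difference of 1, was set as the size worth counting. The 1344 receptor genes had an SD of 0.32 in their log2 difference, and 11 of them passed 2-fold. That spread is from genes at the background and does not give the noise of brighter genes such as the members. Over all detected genes the SD of the difference was 0.66. A difference is SMiG minus C6 throughout. In bulk RNA, fewer cells that express a gene and less of its RNA per cell cannot be told apart.

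The Jun family was higher in SMiG by 2 of its 3 genes. Junb encodes a Jun protein that activates transcription more weakly than c-Jun and can oppose it. Its level was 8.66 in SMiG and 6.99 in C6, which is a log2 difference of 1.67 or 3.19-fold higher in SMiG. Junb ranked 69 from the top of 10903 detected genes by difference. Jund encodes the Jun protein that is present in many resting cells and depends less on stimulation. Its level was 8.12 in SMiG and 7.10 in C6, which is a difference of 1.02 or 2.03-fold higher, just past the threshold.

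Jun, which encodes c-Jun, gave no single reading. Its first probe set read 7.55 for SMiG and 6.82 for C6, a difference of 0.72. Its second and brighter probe set read 9.89 for SMiG and 9.95 for C6, a difference of −0.061. The pair averaged 0.33, and neither probe set passed 2-fold. Their gap of 0.78 was among the wider ones. Of the 147 genes with exactly 2 detected probe sets, 10, with Jun itself counted, had a gap at least as wide, and the median gap was 0.18. Both readings were within 2-fold and they lay on opposite sides of 0.

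**Figure D2:**
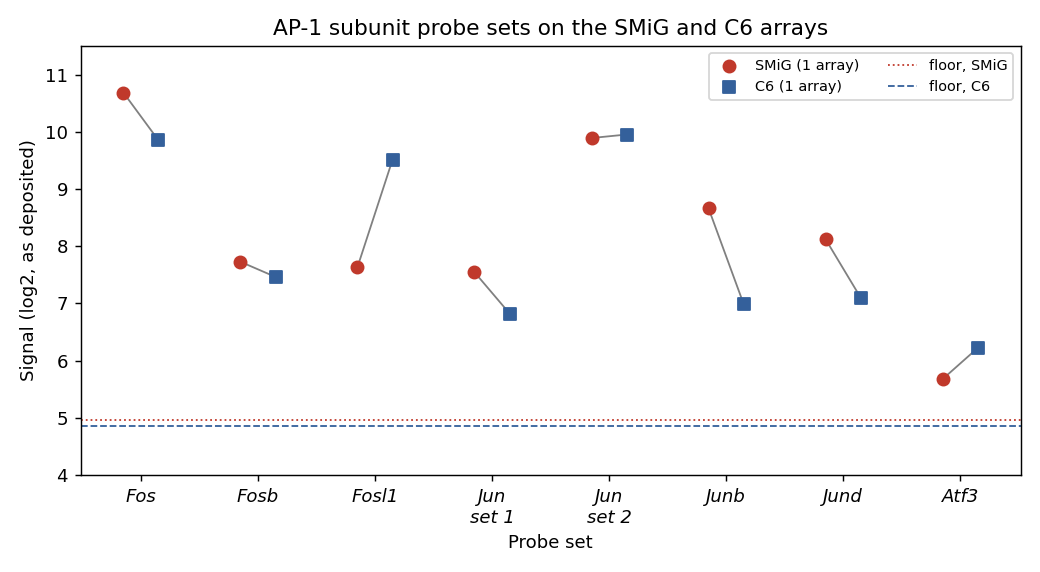
Deposited log2 signal of the 8 AP-1 probe sets, with the SMiG array as red circles on the left and the C6 array as blue squares on the right of each pair, 1 array per group. Dotted and dashed lines are the floors of the SMiG and C6 arrays. Fosl1 slopes up towards C6 (7.63 in SMiG and 9.51 in C6), Junb and Jund slope down, and the Jun probe sets disagree.

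The Fos family was split. Fosl1 encodes Fra-1, a Fos protein that lacks the strong activation domain of c-Fos and is linked to invasive growth in several tumours. Its level was 7.63 in SMiG and 9.51 in C6, which is a difference of −1.88 or 3.68-fold lower in SMiG, and it ranked 174 from the bottom of the detected genes. Fos, which encodes c-Fos, had a level of 10.69 in SMiG and 9.85 in C6. This was 1.78-fold higher in SMiG, a log2 difference of 0.83, just short of the threshold. Fosb, which encodes a close relative of c-Fos, had a level of 7.73 in SMiG and 7.46 in C6, and its difference was 0.27. The differences of Fos and Fosl1 lay apart by 2.71 on the log2 scale, and Junb and Fosl1, at opposite ends of the members, by 3.55.

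Atf3 encodes a stress-induced bZIP protein that can repress transcription as a homodimer and activate it beside Jun proteins. Its level was 5.68 in SMiG and 6.22 in C6, which is a difference of −0.54 or 1.46-fold lower. It was the dimmest member relative to the floor, 0.72 above it in SMiG and 1.36 above it in C6.

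Of the 7 members, 2 (28.6%) were past 2-fold on the higher side in SMiG and 1 (14.3%) on the lower side. Over all 10903 detected genes the share past 2-fold was 3.2% on the higher side and 6.53% on the lower side, or 9.73% in either direction. The median difference of the members was 0.33, against −0.0040 for all detected genes. With 7 members, 1 gene moves these shares by 14.3 percentage points, so they describe the members and set no family apart from other genes.

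**Figure D3:**
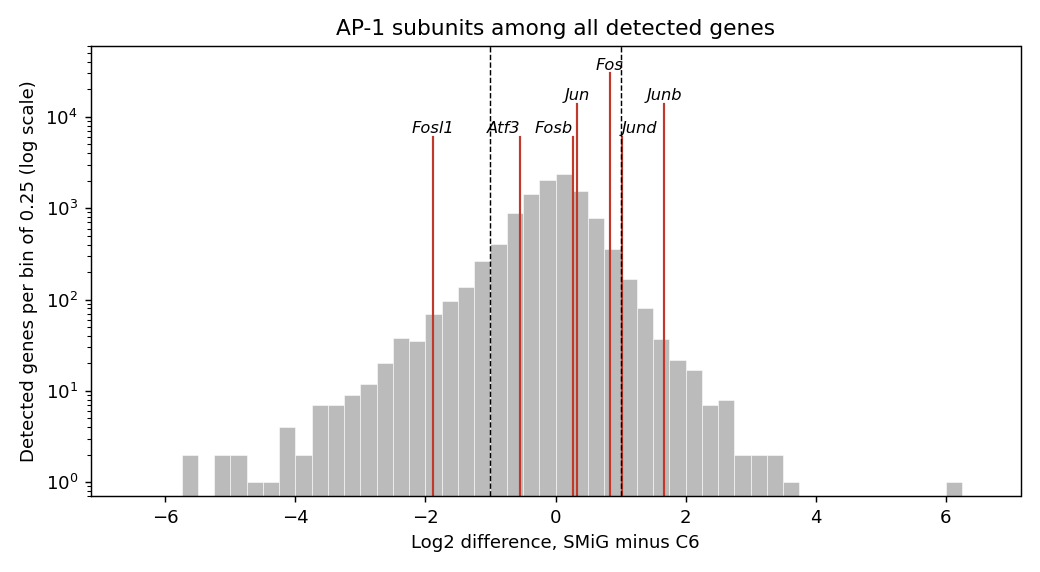
Number of detected genes (log scale) by log2 difference, SMiG minus C6, in bins of 0.25, with red lines at the 7 AP-1 members and dashed lines at 2-fold. Fosl1 at −1.88 lies in the lower tail, Junb at 1.67 in the upper tail, and Jund at 1.02 beside the threshold.

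For the members past 2-fold, the genes with the nearest pair of levels on the 2 arrays were looked up. The nearest to Junb were Ror1, at 8.61 in SMiG and 7.03 in C6, then Ephb2 and Col27a1. The nearest to Jund were Habp4, Tubb2b and Bcor, and the nearest to Fosl1 were Pdgfc, at 7.59 in SMiG and 9.60 in C6, then Scfd2 and Capg. Likeness over 2 arrays is a weak measure, and levels of different probe sets are not on one scale.

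Genes connected with AP-1 were read from 6 lists holding 113 entries, of which 87 genes were detected. In all, 7 of the 87 genes (8.05%) passed 2-fold as higher in SMiG and 12 (13.8%) as lower by the measured values, against 3.2% and 6.53% of all detected genes. The lists were chosen with earlier results of these data known, so these shares describe the lists and are not a test. The list of reported AP-1 targets gave 7 of the 12 lower genes. Of the 12, Mapk10 and Il6 were below the floor in SMiG with bounds under 2-fold, which leaves 10 supported. Among the other bZIP partners, 2 of 15 detected genes were higher and 0 lower, with a median difference of −0.068. The 2 were Maf, encoding a large Maf factor, at 8.53 in SMiG and 7.25 in C6, and Mafk, encoding a small Maf factor without an activation domain, at 7.76 in SMiG and 6.61 in C6. The stress factor gene Ddit3, whose protein can pair with ATF3, was at −0.85 and the small Maf gene Mafg at −0.68.

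The next list holds kinases and scaffolds of the pathways that phosphorylate Jun and Fos proteins. Of its 15 detected genes 1 passed 2-fold in each direction by the measured values, against 9.73% of all detected genes in either direction, and the median difference was 0.24. Map3k11, encoding a kinase that activates the JNK cascade, was at 7.66 in SMiG and 6.39 in C6, 2.41-fold higher. Mapk10, encoding the neural kinase JNK3, was below the floor in SMiG, at 4.21 against 5.41 in C6, so it was at least 1.37-fold lower. The JNK scaffold gene Mapk8ip1 was at 0.81 and Map3k1 at 0.74, both inside 2-fold.

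Among factors that act on the Fos and Jun promoters, 1 of 11 detected genes was past 2-fold as higher and 1 as lower. The shares of all detected genes were 3.2% and 6.53%. The median difference of the list was −0.12. Elk3, encoding a ternary complex factor that works with serum response factor, was 4.34-fold lower, at 6.90 in SMiG and 9.01 in C6. Stat3, encoding the cytokine-activated factor, was 2.15-fold higher, at 9.65 in SMiG and 8.55 in C6. Elk1, another ternary complex factor gene, was at 0.70 and Atf1, a CREB relative, at −0.73. Of 6 detected genes for turnover of the proteins, 0 passed 2-fold as higher and 1 as lower, against 3.2% and 6.53% of all detected genes. The median difference of these 6 was −0.21. The lower gene was Trib2, a Tribbles pseudokinase that works with the COP1 ubiquitin ligase, right at the threshold, at 5.55 in SMiG and 6.55 in C6. Trib1 was at −0.51, Itch at −0.25 and Gsk3b at 0.18.

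The other immediate early genes had a median difference of 0.40 over 24 detected genes, against −0.0040 for all detected genes, with 16 positive and 8 negative. Of all detected genes, 49.0% had a positive difference. Past 2-fold, 3 (12.5%) were higher and 2 (8.33%) lower, against 3.2% and 6.53% of all detected genes. Per1, a clock gene with CRE-driven induction, was at 8.65 in SMiG and 6.52 in C6, 4.37-fold higher. Zfp36, encoding the mRNA-destabilising protein tristetraprolin, was at 8.69 in SMiG and 6.65 in C6, 4.11-fold higher. Ier2 was 2.09-fold higher, whereas the small GTPase gene Gem was 4.34-fold lower and the factor gene Klf4 2.59-fold lower. The higher Junb level stood beside higher values of some immediate early genes and lower values of others.

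Of 26 reported AP-1 target genes with a probe set, 10 were below the floor on both arrays, among them the metalloprotease genes Mmp3, Mmp9, Mmp10, Mmp12 and Mmp13. Such a share is near that over the whole table, where 10903 of 18166 genes were detected. Of the 16 detected genes, 7 (43.8%) passed 2-fold as lower in SMiG and 0 as higher, against 6.53% and 3.2% of all detected genes. This list too was chosen with earlier results of these data known, so the contrast is not a test. Ccl2 and Il6 were detected through C6 alone, which favours a negative difference. Of the 14 targets above the floor on both arrays 9 had a negative difference. The share over all genes above the floor on at least 1 array, a wider set, was 50.3%. The median difference was −0.91 over the 16, −0.67 over the 14 and −0.20 over all 26 without the floor. Spp1, encoding osteopontin, was 29.5-fold lower, at 7.27 in SMiG and 12.16 in C6. Hmox1, encoding heme oxygenase 1, was 7.65-fold lower, at 6.33 in SMiG and 9.27 in C6.

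The remaining targets past 2-fold were spread over secreted and surface proteins. Vegfa, an angiogenic growth factor gene, was at 7.26 in SMiG and 10.18 in C6, 7.58-fold lower. The chemokine gene Ccl2 was below the floor in SMiG, at least 9.75-fold lower. The urokinase receptor gene Plaur was 2.58-fold lower and the cytokine gene Lif 2.23-fold lower. Il6 was below the floor in SMiG with a bound of 1.33-fold, so 6 of the 7 are supported at 2-fold. These genes answer to many factors besides AP-1.

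**Figure D4:**
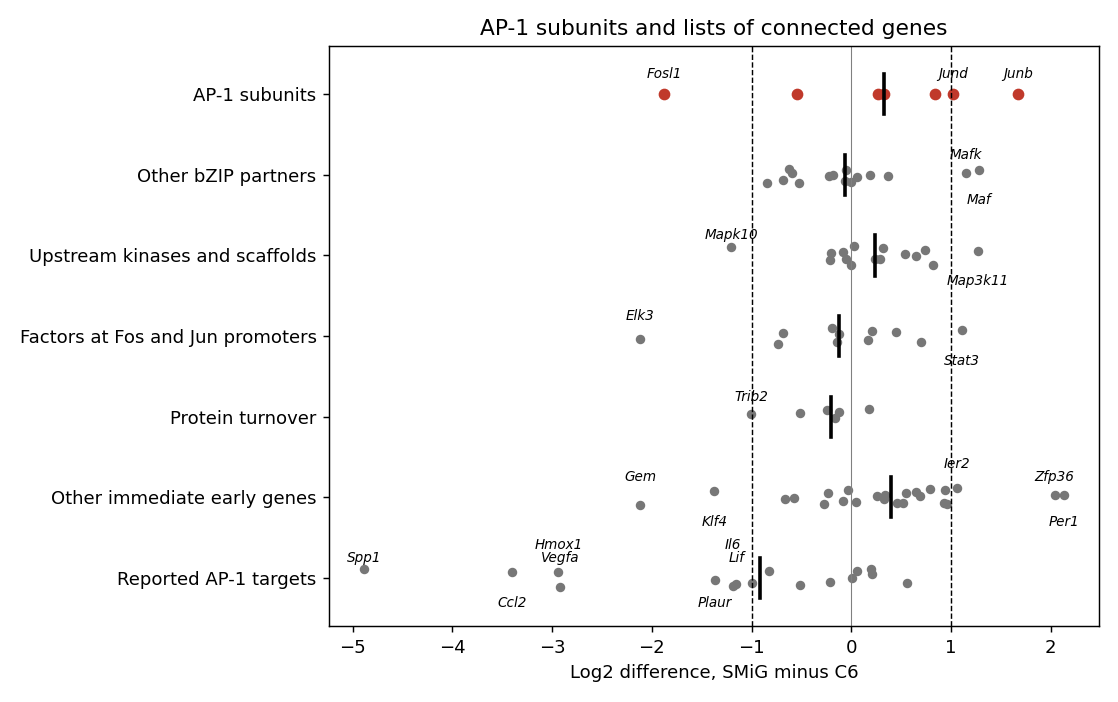
Log2 difference, SMiG minus C6, of the 7 AP-1 members (red) and of the detected genes of 6 lists (grey, 1 point per gene, spread vertically for display only). Black bars are medians, dashed lines mark 2-fold, and genes past 2-fold are named. The target list has points out to Spp1 at −4.88 on the left and none past 2-fold on the right.

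The label of glioma cells was checked against marker lists. Of 9 glial and progenitor markers with a probe set 8 were detected, all but Fabp7. Of the 8, 3 (S100b, Cnp and Sox10, 37.5%) were past 2-fold as higher in SMiG and 0 as lower, against 3.2% and 6.53% of all detected genes. S100b was at 10.87 in SMiG and 9.67 in C6 and Gfap at 5.48 in SMiG and 6.05 in C6. Olig2 lay close to the floor, at 5.43 in SMiG and 5.08 in C6. Neuron, microglia and endothelium lists had 3 of 8, 3 of 8 and 2 of 4 genes detected, none past 2-fold. Of all 18166 genes with a probe set 10903 were detected, and 9.73% of these passed 2-fold in either direction. Of the endothelium list, Tek was at 4.98 in SMiG and 5.83 in C6, and Cldn5 at 5.24 in SMiG and 5.13 in C6. The neuron marker Rbfox3 was above the floor in C6 alone, at 5.12. Of the neuron list, Map2 was at 9.01 in SMiG and 8.80 in C6, and Snap25 at 6.17 in SMiG and 5.65 in C6. Of the microglia list, Tmem119 (5.01 in SMiG and 5.82 in C6) and C1qa (5.64 in SMiG and 5.38 in C6) were above both floors. P2ry12 was above the floor in SMiG alone, at 5.32. The leukocyte marker Ptprc and microglial Aif1 lay under the floor in each sample. Of 6 fibroblast markers, 4 were detected. Of the 4, 2 (50%) passed 2-fold as lower in SMiG and 0 as higher, against 6.53% and 3.2% of all detected genes. The 2 were Col1a1 at −1.15 and Pdgfra, also a glial progenitor marker, at −1.17, while Dcn and Lum lay under the floor in each sample. The summed linear signal of the fibroblast list was 951 in SMiG and 1995 in C6, most of it from Pdgfra, and 254 in SMiG and 433 in C6 without that gene. The fall that remained came from Col1a1, at 7.25 in SMiG and 8.40 in C6, and not from the list as a whole. The sums are rough, because they add probe sets that are not on one scale and include genes under the floor. Col3a1 was at 0.15 and Thy1 at 0.06, on the opposite side to Col1a1. The part of this list in the differences of the AP-1 members was not tested.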

How the data were processed

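Total RNA of 2 cultures was converted to sense cDNA, labelled with biotin and hybridised to GeneChip whole-transcript arrays (source: the labels' protocols). The deposited values are taken as log2 signal that the authors had already scaled between arrays. The log base was read from the values (1.26 to 13.09, above 11.09, the natural log of a 16-bit maximum), and for background correction, normalization and probe set summary the method is not given in the sources used here. Column medians were 4.86 (SMiG) and 4.84 (C6), and no further scaling was applied.

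Genes came from probe sets with 1 symbol (18511 of 36685), averaged per gene. A gene was detected if above the floor on at least 1 array. Folds with the dimmer value below the floor are bounds against it. Named genes were all members, and from each list those detected genes past 2-fold and the 4 largest differences, not all printed here. The members and lists were chosen with earlier results of these data known. Alternatives were other floors, centring, lowess (span 0.3), quantile normalization, other probe set rules and fold thresholds of 1.5 and 3. The number of arrays limits the precision. The counting was tested on simulated data. Python 3.11.15, numpy 2.4.6, pandas 2.3.3, statsmodels 0.14.6 and matplotlib 3.10.9 were used.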

Additional observations from a re-analysis of the deposited data

How the results depend on the processing

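Junb and Jund stayed at least 2-fold higher and Fosl1 at least 2-fold lower under centring, lowess and quantile normalization. Centring subtracts a median of −0.0040, too little to move any of the 3 genes across the threshold. Over all settings the differences were 1.67 to 1.71 for Junb, 1.02 to 1.07 for Jund and −1.88 to −1.85 for Fosl1. The other floors, the raised floor and the probe set rules could not change these differences. Each of the 3 genes has 1 probe set and lies above the floor on both arrays. Jun depended on the probe set, at 0.72 for the first and −0.061 for the second, which is also the brightest. At a 3-fold threshold 1 member (Junb) was higher and 1 lower, and at 1.5-fold Fos joined the higher members, 3 in all. At 1.5-fold the 6 lists held 17 higher and 21 lower genes, and all detected genes gave 1140 and 1647. At 3-fold these were 2 and 6, and 80 and 274. Trib2 was within 2-fold after centring, lowess and quantile normalization, and Mapk10 was not counted with the stricter floor or with values raised to the floor. No paired analysis was possible because each group has 1 array, and no replicate could be left out.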
